A study of Mus musculus with 19 samples.

Results

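The nuclear genes of the mitochondrial respiratory chain were followed as 1 set of 77 genes, out of 18193 genes with a probe set of their own on the array. They were chosen by symbol: every gene whose symbol starts with Ndufa, Ndufb, Ndufc, Ndufs, Ndufv, Uqcr, Sdha, Sdhb, Sdhc, Sdhd, Cox4i, Cox5, Cox6, Cox7 or Cox8, each read from 1 probe set, the brightest on average (mean log2 over 19 arrays) of those annotated to no other gene. The rule takes structural subunits of complexes I to IV, assembly factors named Ndufaf or Sdhaf, and paralogs of complex IV subunits that are restricted to certain tissues. Of the 77 genes, 74 were tested because at least 3 arrays read them above 44.1 (log2 5.46), the overall median signal, among 13320 genes tested in all. The 74 comprised 33 genes of complex I, 4 of complex II, 8 of complex III, 11 of complex IV, 12 assembly factors and 6 tissue-restricted paralogs. Ndufb4, Cox7a1 and Cox7b2 stayed below the filter and were not tested. Cox7b had no probe set of its own and was not analysed here.

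The arrays measured RNA from wild-type mouse embryos of the outbred ICR strain, with no mutant allele and no treatment in any group. In the lens series, 3 arrays each held E10.5 lens, E11.5 lens and E12.5 lens, and 4 arrays held whole body of embryos aged E10.5 to E12.5. In the tooth series, 3 arrays held molar tooth germ at E13.5, and 3 arrays held whole body of embryos aged E11.5 to E13.5. Tissue was dissected by hand. Each tissue was compared with the body of its own series. The labels do not say whether arrays of a group come from separate litters or pools, so the p-values measure only the spread between these arrays. The body arrays mix several stages and all organs of the embryo. In bulk tissue, fewer cells of a type and less RNA per cell cannot be told apart.

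The respiratory chain passes electrons from NADH and succinate to oxygen and pumps protons across the inner mitochondrial membrane, which drives ATP synthesis. Complex I, the NADH dehydrogenase, has a catalytic core and many accessory subunits. Complex II is succinate dehydrogenase and also a step of the citric acid cycle, complex III is the cytochrome bc1 complex, and complex IV is cytochrome c oxidase. All subunits of complex II are encoded in the nucleus, whereas the other complexes also hold subunits encoded in mitochondrial DNA. Several complex IV subunits exist as a widely expressed form and a second form typical of heart and skeletal muscle (Cox6a2, Cox7a1, Cox8b), of testis (Cox6b2, Cox8c, Cox7b2) or of lung and low oxygen (Cox4i2). In the lens, mitochondria are later lost from the maturing fibre cells.

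Promoters of nuclear respiratory genes are known for sites of NRF1 (nuclear respiratory factor 1), ETS factors such as GABP, and YY1. The windows below span the annotated start, with most of each window before it, and come from RefSeq (assembly GRCm38.p6), written 5′ to 3′ along the gene's strand, with capitals marking matches to the searched motifs. They are shown for the gene that differed most between lens and body (Ndufa1), for a succinate dehydrogenase subunit that was low in tooth germ (Sdhd), for a widely expressed complex IV subunit (Cox6a1), and for the widely expressed and testis forms of subunit 6b (Cox6b1 and Cox6b2).
Ndufa1, chrX:37191189-37191488, minus strand: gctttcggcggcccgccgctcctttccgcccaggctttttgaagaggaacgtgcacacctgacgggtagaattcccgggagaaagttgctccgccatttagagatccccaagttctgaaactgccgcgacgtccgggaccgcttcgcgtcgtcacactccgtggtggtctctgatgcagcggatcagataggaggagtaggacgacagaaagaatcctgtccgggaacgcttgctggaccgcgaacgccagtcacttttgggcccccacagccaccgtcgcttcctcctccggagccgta
Sdhd, chr9:50603800-50604099, minus strand: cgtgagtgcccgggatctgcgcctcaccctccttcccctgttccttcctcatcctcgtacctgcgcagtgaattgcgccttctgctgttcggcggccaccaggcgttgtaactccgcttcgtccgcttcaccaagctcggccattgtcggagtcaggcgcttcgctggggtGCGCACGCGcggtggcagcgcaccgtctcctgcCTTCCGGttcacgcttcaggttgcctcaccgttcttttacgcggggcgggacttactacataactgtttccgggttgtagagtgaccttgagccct
Cox6a1, chr5:115348909-115349208, minus strand: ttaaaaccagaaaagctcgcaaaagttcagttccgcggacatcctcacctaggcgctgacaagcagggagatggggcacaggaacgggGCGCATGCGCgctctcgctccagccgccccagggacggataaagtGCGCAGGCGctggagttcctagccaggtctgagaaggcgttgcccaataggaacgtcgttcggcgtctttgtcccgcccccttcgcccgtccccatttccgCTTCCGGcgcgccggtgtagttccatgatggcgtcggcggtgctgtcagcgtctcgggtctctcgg
Cox6b1, chr7:30626065-30626364, minus strand: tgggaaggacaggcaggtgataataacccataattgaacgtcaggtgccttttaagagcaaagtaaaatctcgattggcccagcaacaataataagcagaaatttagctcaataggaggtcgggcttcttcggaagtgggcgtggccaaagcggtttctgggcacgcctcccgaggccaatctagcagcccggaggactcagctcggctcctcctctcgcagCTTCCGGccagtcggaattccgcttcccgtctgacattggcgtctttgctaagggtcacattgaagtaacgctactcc
Cox6b2, chr7:4753045-4753344, minus strand: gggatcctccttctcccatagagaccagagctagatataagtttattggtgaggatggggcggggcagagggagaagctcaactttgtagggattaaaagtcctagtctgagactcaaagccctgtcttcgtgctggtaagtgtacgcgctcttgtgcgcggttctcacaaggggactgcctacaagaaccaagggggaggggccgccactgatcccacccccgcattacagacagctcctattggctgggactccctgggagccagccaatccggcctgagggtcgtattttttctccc
The motifs were searched on both strands, each counted by itself where matches overlap: NRF1 as GCGCANGCG, YY1 as AAGATGGC, ETS as CCGGAAG and the cyclic AMP response element (CRE) as TGACGTCA.

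RefSeq promoter windows were matched for 63 of the 77 genes, in 65 windows. The NRF1 motif was in 24.62% of these windows, against 6.25% of all 32851 promoter windows. The ETS motif was in 24.62% of the members' windows and 8.86% of all windows, YY1 in 10.77% and 2.75%, and CRE in 4.62% and 1.79%. None of these letters occurred in the 4 windows of tissue-restricted paralogs. The Sdhd and Cox6a1 windows held both NRF1 and ETS motifs, the Cox6b1 window an ETS motif, and the windows of Cox6b2 and Ndufa1 none of the searched motifs. The median number of CpG dinucleotides per window was 20 for complex I genes, 8.5 for the tissue-restricted paralogs and 7 for all windows.

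Of the control probe sets for sequences absent from mouse RNA, 95% read below a log2 signal of 4.71. Arrays of the same group correlated at 0.9645 to 0.9946. The identity of the tissues was checked with marker genes: all 10 lens markers were higher in lens than in body at each stage, and 8 of 9 tooth markers were higher in tooth germ than in body. Of the 16 muscle genes, 15 were lower than body at each lens stage and 14 in tooth germ. The summed signal of 16 muscle genes was 521.2 to 821.1 on lens arrays and 16475.7 to 19031 on lens-series body arrays, and 651.9 to 836.8 on tooth germ arrays and 4585.1 to 6233.8 on tooth-series body arrays. The summed signal of 13 neuron genes was 409.9 to 553.8 in lens and 14300.3 to 16631.9 in its body group, and that of 9 erythroid genes 20098.8 to 42777.6 and 49053.6 to 55521.4. All 8 liver genes were lower than body at each lens stage, and of 7 pericyte genes 6, 5 and 4 were lower at the 3 stages. In tooth germ 13 of 13 neuron genes, 8 of 8 liver genes and 5 of 8 tested erythroid genes were lower than body, and 4 of 7 pericyte genes were higher. The part of these cell types in the differences below was not tested.

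In the lens, few respiratory chain genes were called different from whole body. Of the 33 complex I genes among the 74, 2 were called higher and 1 lower at E10.5. At E11.5 they gave 2 higher and 5 lower, and at E12.5 they gave 5 and 5. Values below are log2 signals, and differences are log2 with the standard error (SE) of limma's fit over all genes and arrays. A gene was called at a Benjamini-Hochberg adjusted p under 0.05. At E10.5, 3 of the 74 genes were called higher (13.5% of all tested genes) and 3 lower (19.1% of all tested genes) in lens than in body. At E11.5, 4 were higher (all tested genes 14.7%) and 7 lower (22.3%), and at E12.5, 9 were higher (all tested genes 16.6%) and 7 lower (26.7%). Without centring, the share of members called was below the share of all tested genes at each stage and in both directions. The median difference of the 56 structural subunits was -0.05, -0.07 and -0.08 at the 3 stages, beside -0.01, -0.03 and -0.05 for all tested genes. Centring each array on its median moved the all-gene difference by 0.082, 0.127 and 0.143, turned the structural subunits' median to 0.04, 0.06 and 0.07 at the 3 stages, and gave 7 genes higher and 1 lower, 9 higher and 3 lower, and 18 higher and 4 lower. Over all tested genes, centring gave 2378 higher and 2292 lower genes at E10.5, against 1797 and 2548 without it, 2768 and 2446 against 1954 and 2965 at E11.5, and 3161 and 2876 against 2215 and 3559 at E12.5. With centring, the 18 of 74 members higher at E12.5 were thus no smaller a share than the 3161 of 13320 genes. No gene of complex II was called at any lens stage, and in complex III only Uqcr11 was, at E12.5.

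**Figure D1:**
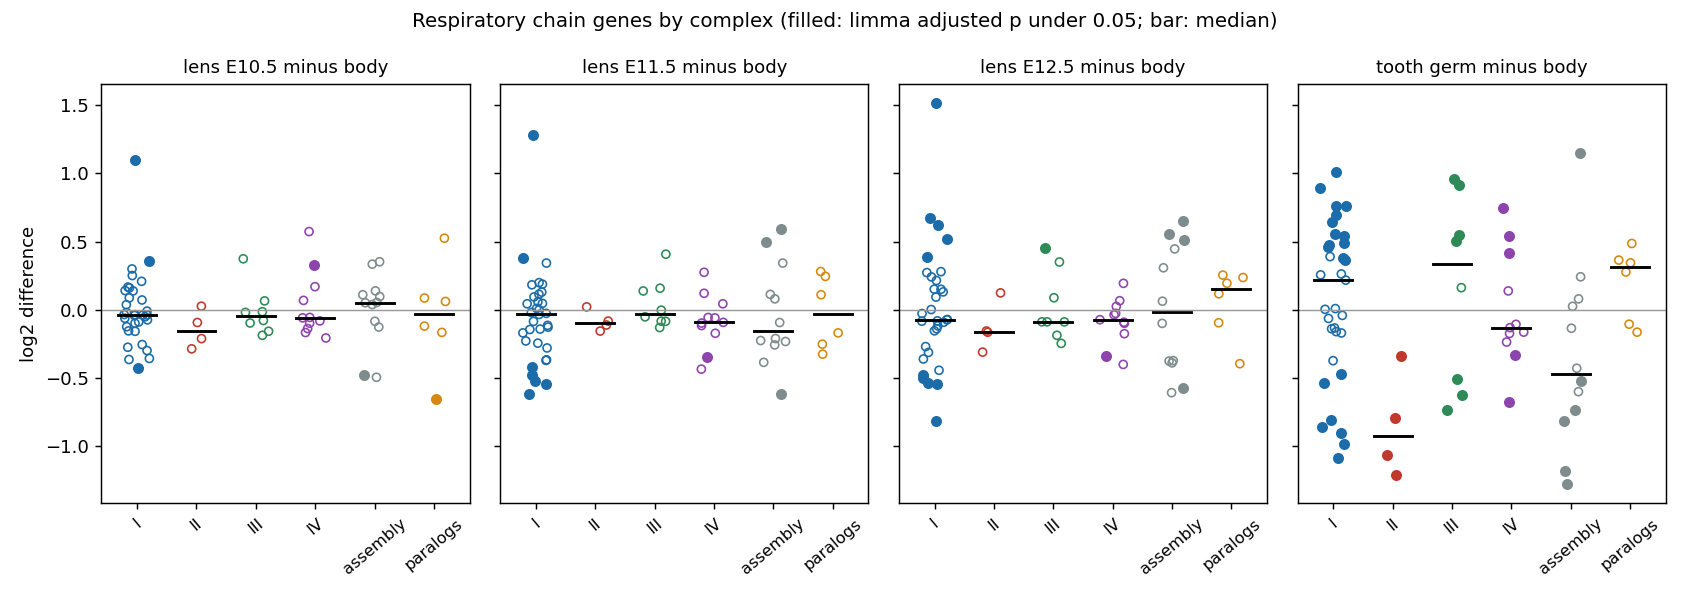
Log2 difference (vertical axis) of each tested respiratory chain gene from the whole body of its series, for lens at 3 stages and for tooth germ, by class along the horizontal axis. Each point is 1 gene, filled where limma's adjusted p was under 0.05, and the bar is the class median. Lens medians lie near 0 in each class, whereas in tooth germ all 4 points of complex II lie below 0 and its median is -0.92.

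Ndufa1, a small X-linked accessory subunit of the membrane arm of complex I (chrX:37187588-37191238, GRCm38.p6), had the largest difference among the members at each lens stage. Its signal was 13.01, 13.14 and 13.23 in E10.5 lens, 13.04, 13.50 and 13.40 in E11.5 lens and 13.45, 13.59 and 13.60 in E12.5 lens, against 11.98, 12.03, 12.01 and 12.12 in the body. Each of the 9 lens arrays lay above each of the 4 body arrays. The difference was 1.09 ± 0.12 for E10.5 lens (adjusted p = 4.44e-07), 1.28 ± 0.12 for E11.5 lens (5.16e-08) and 1.52 ± 0.12 for E12.5 lens (3.84e-09; SE, limma). The lens-series arrays fall into sets of high and low signal of 9 bacterial control probe sets, which cut across the groups. Within the high set Ndufa1 differed by 1.06, 1.02 and 1.43 at the 3 stages, and within the low set by 1.19, 1.41 and 1.55. Only 1 probe set reads this gene alone.

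The other genes higher in lens at E12.5 were accessory subunits of complex I, assembly factors and Uqcr11. Ndufv3, a small accessory subunit of the NADH-oxidising module, was 11.71, 11.77 and 11.75 in E12.5 lens, against 10.92, 11.26, 11.32 and 10.98 in body. The groups did not overlap, and the difference was 0.62 ± 0.12 (adjusted p = 0.000216, limma), 0.42 within the high control set, which holds 1 E12.5 lens array, and 0.81 within the low set. It was already called at E10.5 (0.36) and E11.5 (0.38). Both calls ended when 1 array was left out, with 0.32 (adjusted p = 0.095) without lens replicate 2 at E10.5 and 0.31 (0.0614) without body replicate 1 at E11.5. Ndufc1, an accessory subunit of the membrane arm, was 12.37, 12.31 and 12.09 in E12.5 lens, against 11.46, 11.99, 11.46 and 11.42 in body. Body replicate 2 stood above the other body arrays yet below each lens array, and the difference was 0.67 ± 0.14 (adjusted p = 0.000605). A second probe set of Ndufc1 differed by 0.88 (adjusted p = 0.000766), in the same direction.

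Assembly factors, which help build the complexes without staying in them, were called in both directions. Ndufaf6 was 8.44, 8.39 and 8.06 in E12.5 lens, against 7.54, 7.57, 7.76 and 7.71 in body, with no overlap and a difference of 0.65 ± 0.18 (adjusted p = 0.00726). At E11.5 it differed by 0.49 (adjusted p = 0.042), but by -0.05 within the high control set and by 0.24 without lens replicate 2 (adjusted p = 0.3). Ndufaf7, a mitochondrial methyltransferase, was higher at E11.5 (0.59, adjusted p = 0.00292) and E12.5 (0.55, adjusted p = 0.00411). Ndufaf5, which modifies the core subunit Ndufs7 in human cells, was lower at each stage, by -0.48, -0.61 and -0.57, and its E10.5 call ended without lens replicate 1 (-0.41, adjusted p = 0.136). Its partner Ndufaf8 was higher at E12.5 (0.51), a call that ended without lens replicate 2 (0.40, adjusted p = 0.155). A second probe set of Ndufaf8 differed by 0.24 (adjusted p = 0.295).

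Of the genes lower in lens, complex I subunits were 1 of 3 at E10.5, 5 of 7 at E11.5 and 5 of 7 at E12.5. Complex I gave 33 of the 74 tested members. Ndufa8, an accessory subunit facing the intermembrane space, was 10.60, 10.24 and 10.22 in E12.5 lens, against 10.90, 11.04, 10.88 and 10.76 in body. It was lower at each stage, by -0.43, -0.47 and -0.54 ± 0.13 (adjusted p = 0.00246 at E12.5, limma), and the E10.5 call ended without lens replicate 3 (-0.32, adjusted p = 0.112). Ndufb9, an accessory subunit of the membrane arm, was 10.96, 10.62 and 10.37 in E12.5 lens, against 11.33, 11.74, 11.62 and 11.17 in body. These arrays did not overlap, and the difference was -0.81 ± 0.18 (adjusted p = 0.00102). The other probe sets of Ndufb9 did not repeat it: a bright one differed by -0.22 (adjusted p = 0.186) and a dim one by 0.32 (adjusted p = 0.228). Ndufa5 (-0.54), Ndufa12 (-0.48) and Ndufv1 (-0.50), the core subunit that holds the NADH site, were lower at E12.5. Without lens replicate 3, Ndufa5 was at -0.39 (adjusted p = 0.0753) and Ndufv1 at -0.42 (0.0671), and with each array centred Ndufa12 was at -0.34 (0.0673) and Ndufv1 at -0.35 (0.0567).

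Most of the remaining lens calls ended with a single array left out. Cox4i1, the widely expressed regulatory subunit of complex IV, was higher at E10.5 by 0.33 (adjusted p = 0.0297), and by 0.30 (0.102) without lens replicate 2. Cox6b1 was lower at E11.5 (-0.35) and E12.5 (-0.34), with -0.28 (adjusted p = 0.125) without body replicate 3 and -0.26 (0.186) without lens replicate 3. A second probe set of Cox6b1 differed by -0.09 (adjusted p = 0.6) and -0.15 (0.296) at these stages. Ndufa13 was higher at E12.5 by 0.52 (adjusted p = 0.00331), and remained called with any 1 array left out (0.49 and 0.0164 at the weakest). Ndufb9 and Ndufa5 were lower at E11.5 as well (adjusted p = 0.011 and 0.0104), and both calls held with any 1 array left out. A second probe set of Ndufa5 was also called at E11.5 (-0.36, adjusted p = 0.043). Those of Ndufb9 were not, at -0.26 (0.136) and 0.48 (0.0791). Uqcr11 and Ndufa7 were higher at E12.5, by 0.45 and 0.39. Without lens replicate 1 Uqcr11 was at 0.27 (adjusted p = 0.274), and without lens replicate 2 Ndufa7 was at 0.31 (0.109). No other probe set of Ndufa7 was called at E12.5 (0.28, 0.27, 0.05 and -0.08). At E11.5 Ndufb6 and Ndufs8 were lower by -0.52 and -0.42, and without lens replicate 1 at -0.40 (adjusted p = 0.156) and -0.32 (0.149). Among the 5 other probe sets of Ndufs8, those at 0.08 and 0.26 had the opposite sign. A second probe set of Ndufb6 differed by -0.22 (adjusted p = 0.188).

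**Figure D2:**
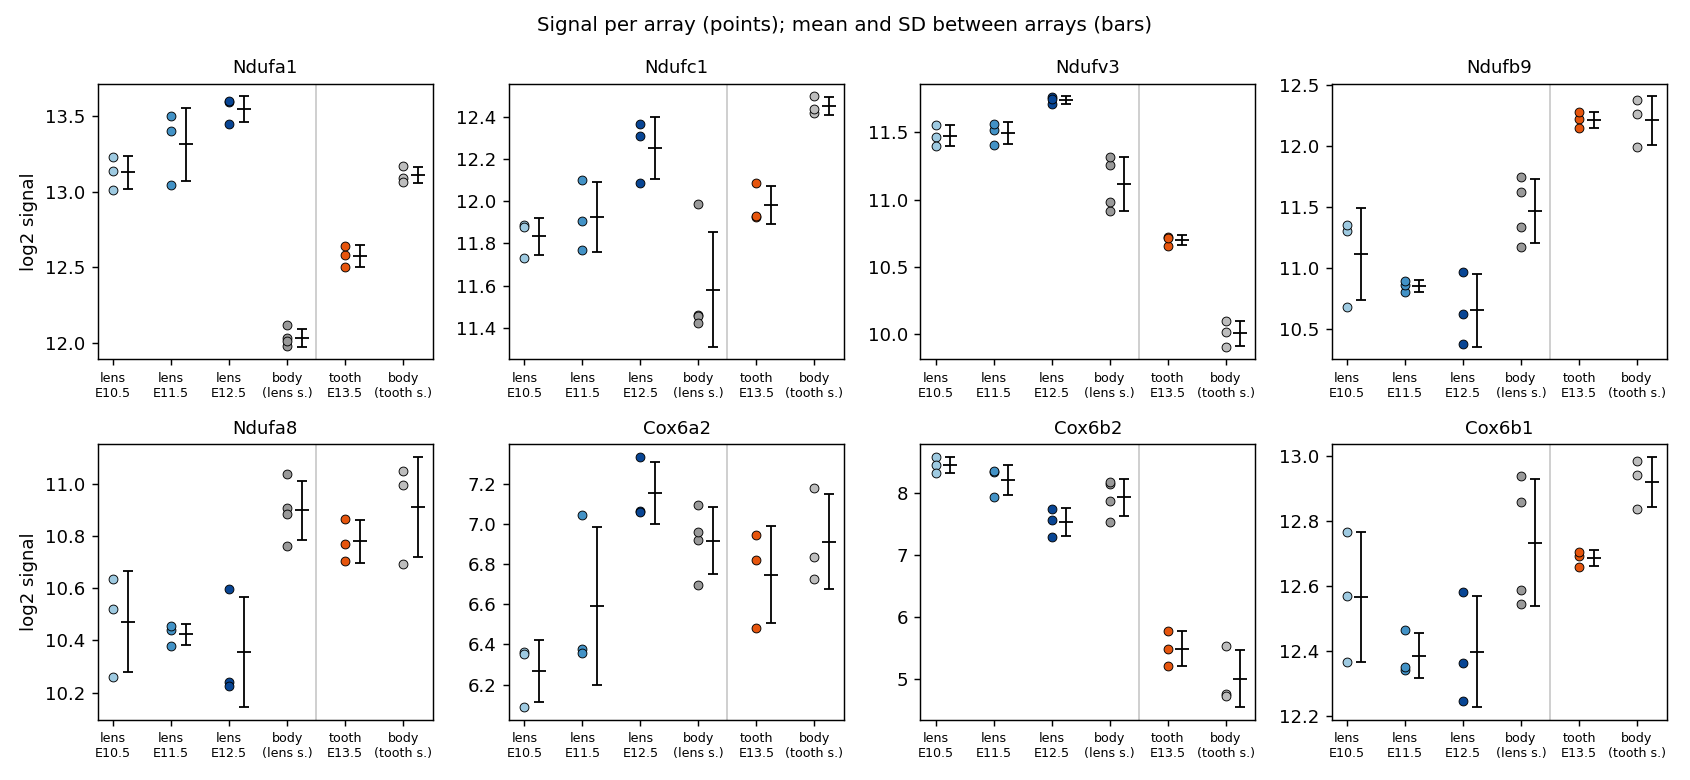
Log2 signal (vertical axis) of 8 respiratory chain genes on each array, by group along the horizontal axis, with lens and body of the lens series left of the line and tooth germ and body of the tooth series right of it. Points are arrays, and the bar beside them is the mean with the SD between arrays. Ndufa1 lies between 13.01 and 13.60 on the lens arrays and between 11.98 and 12.12 on the lens-series body arrays, whereas on tooth germ arrays it lies below its body arrays.

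Which genes are called depends on few arrays. At E10.5 the number higher was 1 without lens replicate 1 or 2, and the number lower was 1 without lens replicate 3 or body replicate 2. At E11.5 the number higher was 2 without lens replicate 2 or body replicate 1, and the number lower was 4 without lens replicate 3 or body replicate 2. At E12.5 the number lower was 4 without lens replicate 3. The high and low control sets hold only 1 or 2 arrays of each group, so counts of members called within them are not given.

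Between lens stages few members were called. By limma, no member was called between E11.5 and E10.5 (all tested genes 1.52% higher and 2.74% lower) or between E12.5 and E11.5 (3.02% and 3.45%). At an unadjusted p under 0.05 the counts were 0 higher and 0 lower between E11.5 and E10.5 (all tested genes 6.94% and 9.64%), and 3 higher and 1 lower between E12.5 and E11.5 (7.88% and 9.83%). Without E11.5 replicate 1, 1 gene was called higher at E12.5 than at E11.5. The median differences of the structural subunits were -0.03 and 0.02. Between E12.5 and E10.5, 3 genes were higher (all tested genes 8.91%) and 3 lower (13.2%), and with each array centred 6 were higher and 1 lower (all tested genes 1543 and 1541, against 1187 and 1759 without centring). The largest differences belonged to a pair of tissue-restricted complex IV paralogs that moved in opposite directions.

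Cox6a2, the heart and skeletal muscle form of subunit 6a, was 6.36, 6.09 and 6.35 in E10.5 lens, 7.04, 6.38 and 6.36 in E11.5 lens and 7.06, 7.06 and 7.33 in E12.5 lens, against 6.92, 6.96, 7.09 and 6.69 in body. E12.5 lens lay above E10.5 lens on every array, by 0.89 ± 0.19 (adjusted p = 0.00174, limma), and by 0.84 and 0.85 within the high and low control sets. E10.5 lens lay below body by -0.65 ± 0.18 (adjusted p = 0.00711), and by -0.57 with each array centred (adjusted p = 0.0505), whereas E12.5 lens differed from body by 0.24 (adjusted p = 0.299). Beside this, Tnni1, the slow skeletal troponin I, was the only 1 of 16 muscle genes called between E12.5 and E10.5 lens (1.53, adjusted p = 3.18e-05), and the muscle genes' summed signal was 725 to 821.1 at E12.5 and 521.2 to 608.3 at E10.5. The part of muscle RNA in the difference was not tested.

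Cox6b2, the testis form of subunit 6b, went the other way. It was 8.59, 8.46 and 8.33 in E10.5 lens, 8.34, 8.37 and 7.94 in E11.5 lens and 7.75, 7.58 and 7.30 in E12.5 lens, against 7.54, 8.15, 8.19 and 7.87 in body. The E12.5 and E10.5 arrays did not overlap, and E12.5 was lower by -0.92 ± 0.22 (adjusted p = 0.00497), with -0.77 and -0.89 within the high and low control sets (adjusted p = 0.127 and 0.111). Their widely expressed counterparts showed no call between these stages: Cox6a1 differed by 0.03 (adjusted p = 0.925), and Cox6b1 averaged 12.40 ± 0.17 at E12.5 and 12.57 ± 0.20 at E10.5 (SD, n = 3 each). Ndufa1 and Ndufa7 were higher at E12.5 than at E10.5, by 0.42 and 0.43, and Ndufaf4 and Ndufa12 lower, by -0.47 and -0.45. Each of these 4 calls ended with an array left out, at 0.36 (adjusted p = 0.1) for Ndufa1 without E10.5 replicate 1, 0.35 (0.139) for Ndufa7 without E12.5 replicate 2, -0.36 (0.183) for Ndufaf4 without E12.5 replicate 1 and -0.37 (0.126) for Ndufa12 without E10.5 replicate 2. The number higher was 1 without E10.5 replicate 1 or 2 or E12.5 replicate 2, and the number lower was 1 without E10.5 replicate 1 or 2 or E12.5 replicate 3.

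The other tissue-restricted paralogs gave no call in lens or tooth germ. Cox4i2 averaged 5.62, 5.67 and 5.68 in the 3 lens stages and 5.56 in body, and 5.82 in tooth germ and 5.47 in its body. Cox8b was 5.37, 5.24 and 5.39 in lens and 5.49 in body, and 4.47 in tooth germ and 4.57 in its body, which is below the no-target controls' 95th percentile. Cox8c was 7.51, 7.67 and 7.68 in lens and 7.43 in body, and 7.82 in tooth germ and 7.54 in its body. Ndufa4l2, a target of the hypoxia-inducible factor that takes the place of Ndufa4, averaged 6.45, 6.44 and 6.81 in lens and 6.61 in body. It was also without a call in tooth germ (0.36, adjusted p = 0.197). Cox7a1, the muscle form of subunit 7a, was too dim to be tested, at 4.46, 4.96 and 5.03 in lens and 4.86 in body, and at 4.36 in tooth germ and 5.30 in its body.

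In tooth germ, members were called in both directions in equal number, and all of complex II was lower. Of the 74 genes, 21 were higher (all tested genes 16.6%) and 21 lower (25.3%) in tooth germ than in body. With each array centred, 27 were higher and 17 lower (all tested genes 3285 and 2724, against 2214 and 3370 without centring), the all-gene difference moved by 0.155 and the structural subunits' median was 0.14, against -0.02 without centring. The complexes did not share a direction. Of complex I, 13 of 33 genes were higher and 7 lower (median 0.22). Complex II had 4 of 4 lower (median -0.92), complex III 4 of 8 higher and 3 lower (0.33), complex IV 3 of 11 higher and 2 lower (-0.13), and the assembly factors 1 of 12 higher and 5 lower (-0.47). The all-gene median was -0.04. Among complex I subunits, the 6 tested core subunits had 2 higher and 2 lower, and the 27 accessory subunits 11 higher and 5 lower.

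All 4 succinate dehydrogenase genes were lower in tooth germ. Sdhd, a membrane anchor, lay between 8.88 and 8.90 on the germ arrays, against 10.09, 10.07 and 9.70 in body, a difference of -1.06 ± 0.13 (adjusted p = 2.13e-06). Sdhc, the other anchor, was 9.51, 9.15 and 8.997 in germ, against 10.53, 10.55 and 10.21 in body (-1.21 ± 0.19, adjusted p = 4.69e-05). The groups of both anchors did not overlap, as was so for 56.1% of all tested genes. Sdhb, the iron-sulphur subunit, was 10.56, 10.76 and 10.91 in germ, against 11.72, 11.80 and 11.07 in body (-0.79 ± 0.17, adjusted p = 0.00105). Sdha, the flavin-binding catalytic subunit, had overlapping groups, with 10.22, 10.49 and 10.40 in germ, against 10.69, 10.96 and 10.49 in body. It differed by -0.34 (adjusted p = 0.0445), and by -0.22 (0.226) without body replicate 2.

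These falls rest on 1 probe set per gene. The second probe set of Sdhd differed by -0.08 between germ and body (adjusted p = 0.82), that of Sdhc by 0.10 (0.532) and that of Sdha by 0.12 (0.431), so none of the 3 genes was called by it. Sdhb has no second probe set here. The second probe sets read above the no-target controls, at 8.06 in germ and 8.14 in body for Sdhd, 8.52 and 8.41 for Sdhc, and 10.99 and 10.87 for Sdha.

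**Figure D3:**
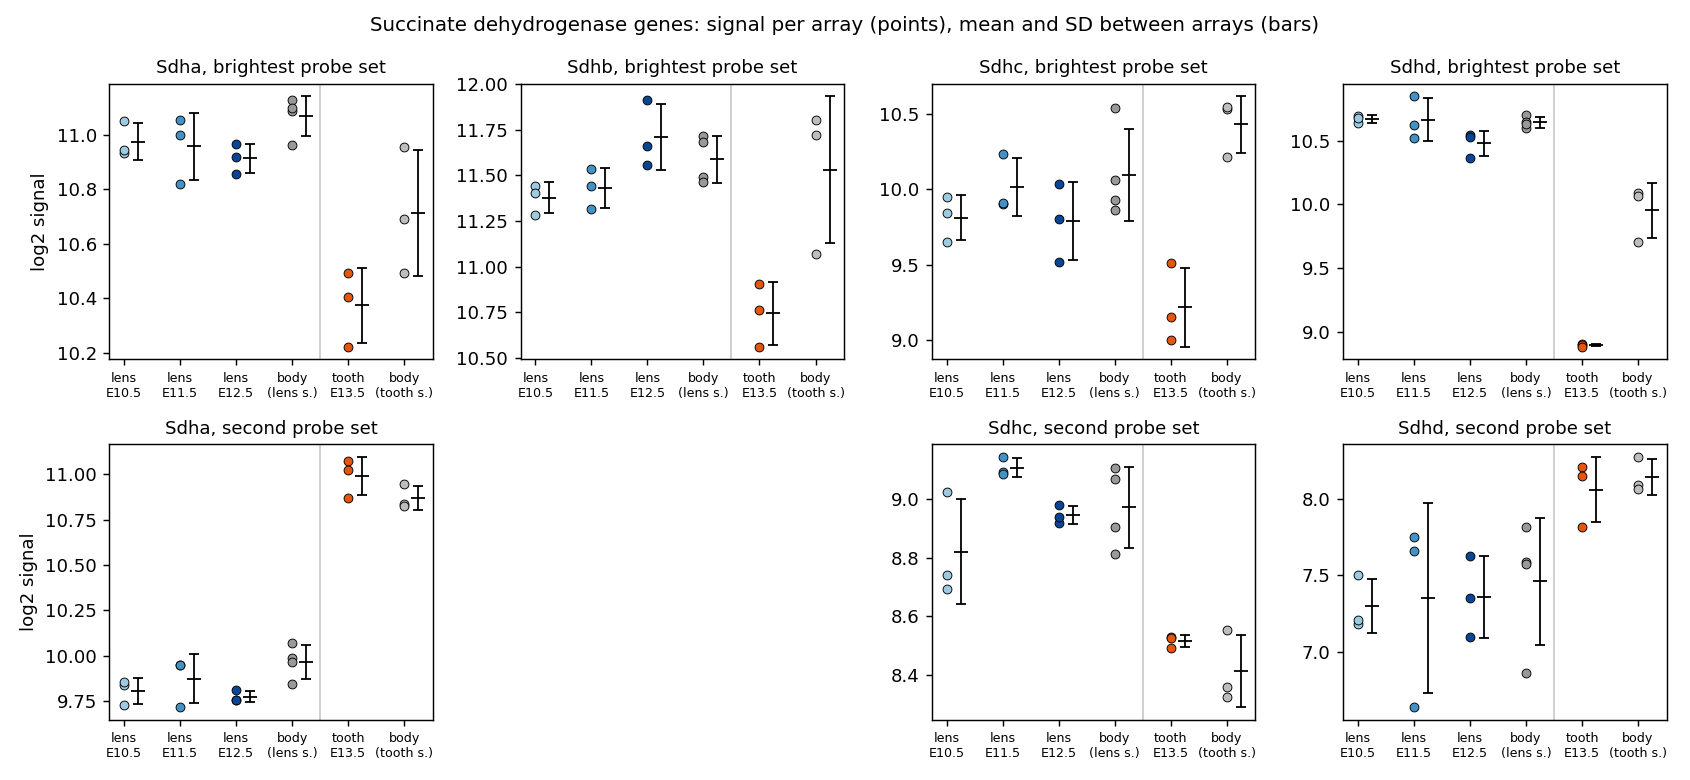
Log2 signal (vertical axis) of the 4 succinate dehydrogenase genes by group (horizontal axis), with the brightest probe set of each gene in the upper row and the second probe set, where a gene has one, in the lower row. Points are arrays and bars are the mean and SD between arrays. In the upper row the 3 germ arrays of Sdhb, Sdhc and Sdhd lie below all 3 body arrays of the tooth series, and in the lower row the germ and body arrays lie close together.

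Among complex I genes lower in tooth germ, Ndufs4 differed by -1.08 ± 0.16 (adjusted p = 2.56e-05), Ndufs5 by -0.98 and Ndufa9 by -0.90. Ndufs5 was dim, at 5.28, 5.02 and 5.95 in germ, against 6.26, 6.41 and 6.53 in body. Its germ values lay near the no-target controls' 95th percentile (4.71), so the size of its fall is uncertain. The core subunits Ndufs1 and Ndufs3 were lower by -0.86 and -0.80. Ndufs1, an iron-sulphur subunit of the NADH module, was 9.16, 9.43 and 9.51 in germ, against 10.33, 10.38 and 9.96 in body, with no overlap. The other probe sets of Ndufs4 differed by -0.23 and -0.19 (adjusted p = 0.519 and 0.556). Among those higher, Ndufb2 was 10.43, 10.12 and 10.30 in germ, against 9.38, 9.20 and 9.23 in body (1.01 ± 0.19, adjusted p = 0.000286), and its other probe sets differed by 1.19 and 0.98, both called. The core subunits Ndufs7 and Ndufs8 were higher by 0.89 and 0.76, which is the direction opposite to that of Ndufs1 and Ndufs3. A second probe set of Ndufs7 differed by 0.07 (adjusted p = 0.724), whereas 3 of the 5 other probe sets of Ndufs8 were called higher, at 0.65, 0.35 and 0.37. Ndufb10, Ndufv3 and Ndufa7 were higher by 0.76, 0.69 and 0.64, but 3 of the 4 other probe sets of Ndufa7 were not called (0.30, 0.10 and 0.27), and Ndufa1 was lower by -0.54 (adjusted p = 0.00231). Ndufc1 was lower by -0.47 (adjusted p = 0.0167), but its second probe set differed by 0.21 (0.429).

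Of the assembly factors, Ndufaf1 (-1.28 ± 0.26, adjusted p = 0.000524), Ndufaf6 (-1.18) and Ndufaf7 (-0.81) were lower, and Ndufaf8 was higher. Ndufaf8 was 10.33, 10.20 and 10.26 in germ, against 9.11, 9.14 and 9.09 in body (1.15 ± 0.20, adjusted p = 0.000152). In complex III the small subunits Uqcr10 and Uqcr11 were higher, by 0.95 and 0.91, while the Rieske iron-sulphur protein Uqcrfs1 and the core protein Uqcrc2 were lower, by -0.62 and -0.51. The other core protein, Uqcrc1, was higher by 0.54 (adjusted p = 0.021), and by 0.42 (0.0983) without body replicate 3. In complex IV, Cox8a was higher by 0.74 (adjusted p = 5.67e-05; a second probe set 0.27, 0.0852). Cox6a1 was 13.63, 13.55 and 13.55 in germ, against 13.12, 13.02 and 12.96 in body (0.54 ± 0.12, adjusted p = 0.00118), and its second probe set differed by 1.72 (3.29e-09). Ndufa4, a subunit first assigned to complex I and now to complex IV, was lower by -0.68 (adjusted p = 0.000406). The widely expressed forms Cox4i1, Cox7a2 and Cox7a2l gave no call (-0.13, -0.17 and -0.16; adjusted p = 0.403, 0.253 and 0.413).

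Across all called members in tooth germ, 40 other probe sets of the same genes could be read, of which 33 had the same sign (16 called) and 7 the opposite sign (2 called). At E12.5 in lens, 12 of 14 had the same sign, of which 4 were called. The tooth-series RNA also differed from the lens series in a measure of signal along the transcript. The 3′ probe set of Actb exceeded the 5′ probe set by 4.218 to 5.048 (log2) in the tooth series and by 0.211 to 0.477 in the lens series, and for Gapdh the excess was 2.816 to 4.082 and -0.104 to 0.052. Within the tooth series the excess for Actb was 4.776 to 5.048 in germ and 4.218 to 4.474 in body, and that for Gapdh 2.816 to 3.126 in germ and 3.837 to 4.082 in body. These gaps moved with the germ and body groups, and their part in the members' differences was not tested.

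**Figure D4:**
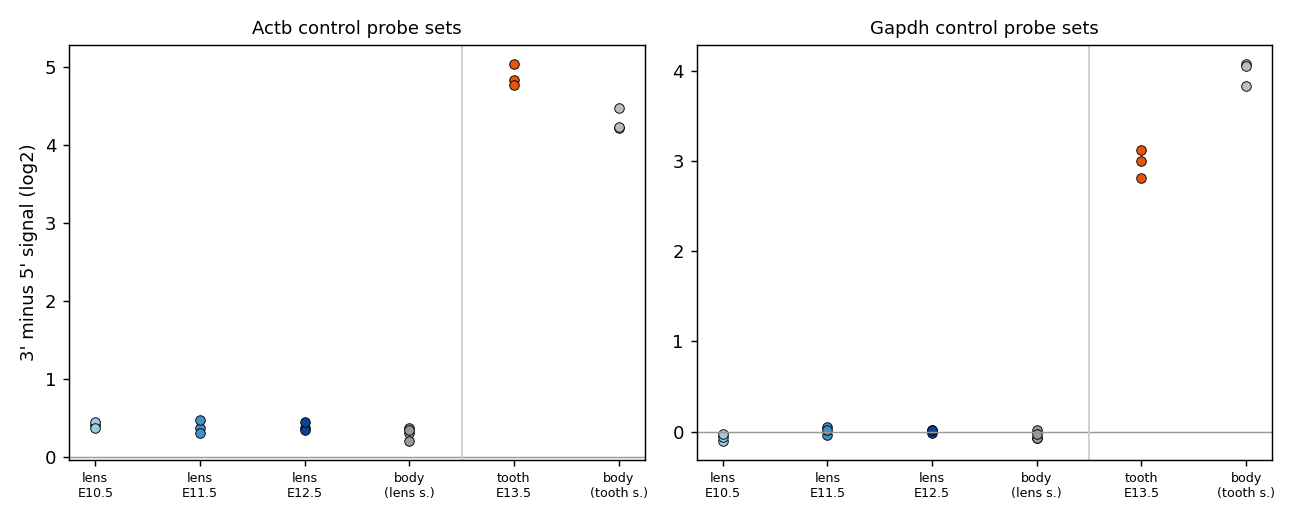
Excess of the 3′ over the 5′ control probe set (log2, vertical axis) for Actb and Gapdh on each array, by group (horizontal axis). Lens-series arrays lie between -0.104 and 0.477, and tooth-series arrays between 2.816 and 5.048.

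The lens and tooth differences from body were compared in the same fit. The lens difference at E12.5 exceeded the tooth difference for 17 genes (all tested genes 19.2%) and fell below it for 13 (20.4%). Ndufa1 differed most, with 1.52 in lens and -0.54 in tooth germ, a gap of 2.05 ± 0.17 (adjusted p = 3.14e-08). The body groups differed for Ndufa1 as well, with means of 13.11 in tooth-series body and 12.03 in lens-series body (1.08, adjusted p = 2.71e-07, limma). The tissue means were 13.55 in E12.5 lens and 12.57 in tooth germ, and E10.5 lens averaged 13.13. Ndufaf6 (1.83), Ndufaf7 (1.36) and Ndufc1 (1.14) likewise were higher than body in lens and lower than body in tooth germ. The gap was 0.90 for Sdhd, 0.90 for Sdhc and 0.91 for Sdhb, and 0.18 for Sdha (adjusted p = 0.448), but the second probe sets of Sdhd and Sdhc gave -0.02 and -0.13 (0.971 and 0.584). In the other direction, Ndufs7 (-1.33), Uqcr10 (-1.20), Ndufs8 (-1.07), Ndufa12 (-0.95) and Ndufv1 (-0.88) were lower relative to body in lens than in tooth germ. The second probe sets of Ndufs7 and Ndufc1 gave gaps of -0.07 (adjusted p = 0.822) and 0.67 (0.0599). Of the 5 other probe sets of Ndufs8, 4 were not called (-0.25, -0.28, -0.03 and -0.13), nor was 1 of 2 for Ndufv1 (-0.04) and for Ndufa12 (-0.27). Cox6b2 had a gap of -0.88 (adjusted p = 0.0272), with -0.91 within the high control set of lens-series arrays and -0.75 (0.103) within the low set. It was not called against body in E12.5 lens or in tooth germ. Its signal was 5.206, 5.776 and 5.485 in tooth germ and 4.755, 4.722 and 5.533 in tooth-series body. These lie near the no-target controls' 95th percentile (4.71), so the size of its gap is uncertain. Lens and tooth germ were taken at different stages and in different series, so tissue, stage and series cannot be told apart.

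**Figure D5:**
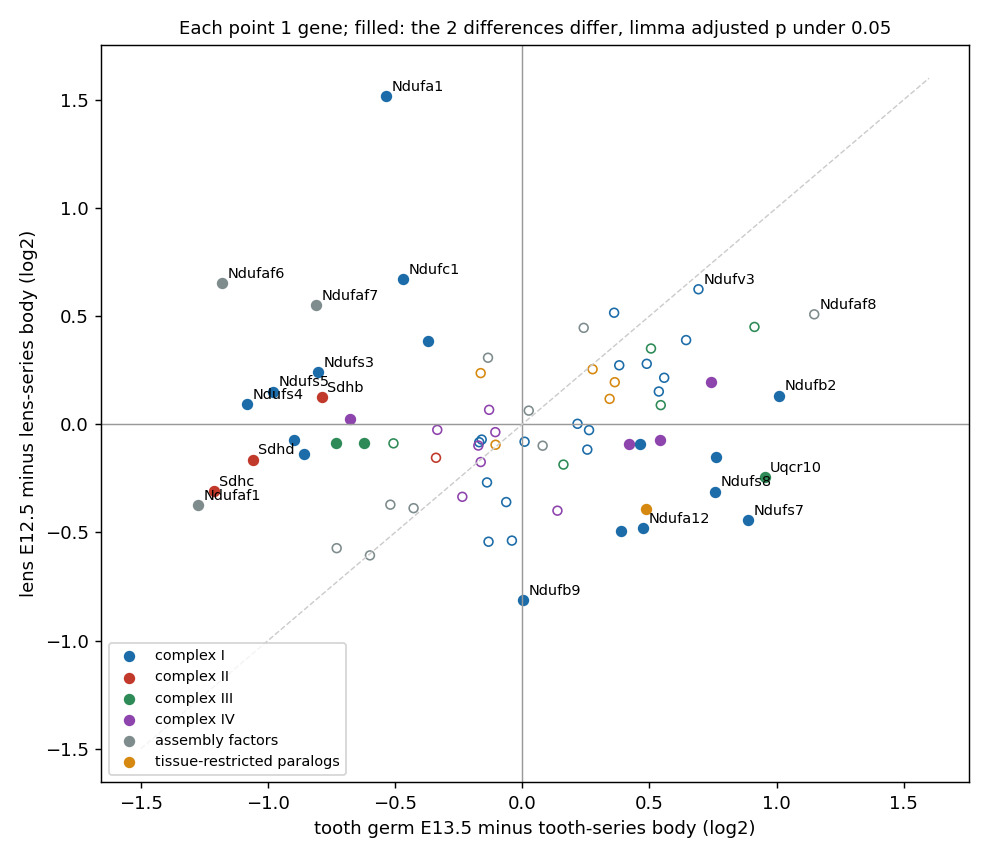
Log2 difference from body in E12.5 lens (vertical axis) against that in E13.5 tooth germ (horizontal axis) for the 74 tested genes, coloured by class. Filled points are genes whose differences differ at limma's adjusted p under 0.05, and the dashed line marks equal differences. Ndufa1 stands apart at 1.52 and -0.54, and Ndufs7 and Ndufs8 lie at the right below the line.

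The body groups themselves were not alike. Between tooth-series body and lens-series body, 19 members were higher (all tested genes 31.8%) and 29 lower (31.8%), with differences from -3.86 for Ndufs5 to 1.59 for Cox7a2l. Ndufs5 was 6.26, 6.41 and 6.53 in tooth-series body, against 9.99, 10.30, 10.54 and 10.18 in lens-series body. Ndufab1, the mitochondrial acyl carrier protein, differed by -3.24, while its other probe sets differed by 1.39, 1.10 and 0.27. Of 49 other probe sets of called members, 28 had the same sign and 21 the opposite sign. Series and body stage cannot be told apart.

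Genes around the respiratory chain, taken from fixed lists, were set beside it. Each was read from 1 probe set, and calls in these lists were not checked with other probe sets or with arrays left out. The shares of all tested genes were 16.6% higher and 26.7% lower in E12.5 lens, and 16.6% and 25.3% in tooth germ. Of 18 ATP synthase genes, 1 was higher and 2 lower in E12.5 lens, and 5 were higher and 2 lower in tooth germ. Atpif1, the inhibitor of ATP synthase, was lower in lens by -0.55, -0.86 and -0.97 at the 3 stages (adjusted p = 2.28e-05 at E12.5). In tooth germ the catalytic subunit gene Atp5b was lower by -1.22 (adjusted p = 1.03e-06), and Atp5g2 and Atp5d were higher by 1.17 and 0.96. Of 15 genes of the citric acid cycle and pyruvate dehydrogenase, 1 was higher and 5 lower in E12.5 lens, among them Pdha1 (-0.99, adjusted p = 1.7e-06) and citrate synthase Cs (-0.69). The higher gene was Suclg2 (0.83). In tooth germ 2 were higher and 8 lower, with Dld at -1.20 and Cs at 0.77. Of 29 further assembly factors, 5 were higher and 2 lower in E12.5 lens and 3 were higher and 8 lower in tooth germ. The copper chaperone Cox17 was higher in lens at each stage (0.98, 1.05 and 0.95).

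Of 15 genes of mitochondrial biogenesis, 2 were higher (all tested genes 16.6%) and 2 lower (26.7%) in E12.5 lens. In tooth germ 4 were higher (16.6%) and 5 lower (25.3%). Nrf1, the factor named above for its motif, was higher in lens than in body by 1.13 at E10.5 (adjusted p = 0.000139) and 0.87 at E11.5, and lower in E12.5 lens than in E10.5 lens by -0.77 (adjusted p = 0.0112). Gabpb1, a subunit of GABP, was lower in E12.5 lens (-0.52) and in tooth germ (-1.56, adjusted p = 1.28e-06). Ppargc1a, a coactivator of mitochondrial genes, had means of 3.80 in E10.5 lens, 3.61 in E12.5 lens and 4.37 in body, all below the no-target controls' 95th percentile. Of 12 hypoxia genes, 5 were higher (all tested genes 13.5%) and none lower (19.1%) in E10.5 lens, among them Slc2a1 (1.75) and P4ha1 (2.02). In E12.5 lens, 1 was higher (8.91%) and 5 lower (13.2%) than in E10.5 lens, with Ldha at -1.03. Of the subunits encoded in mitochondrial DNA, only ND5 was read, with no call in lens (0.52 at E12.5) or tooth germ (0.57).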

How the data were processed

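The submitters' processing notes name RMA and affy 0.7, with no role given for either. The deposited values are intensity values on a linear scale (5.4 to 25043.5), 1 per probe set and array. Log2 was taken here and no further normalization was applied. The platform annotation gives a single gene for 34945 of 45101 probe sets, and 10 that name a respiratory chain gene beside another gene were left out. Symbols were matched by Entrez ID to RefSeq GRCm38.p6.

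Comparisons used lmFit and eBayes of limma 3.58.1 in R 4.3.3, with 1 mean per group over 19 arrays and two-sided adjusted p-values over 13320 genes. The fit was tested on simulated data. Tables, motifs and figures were made in Python 3.11.15. The number of arrays limits the precision. Muscle, neuron, erythroid, pericyte, liver, lens and tooth markers, and lists of ATP synthase, further assembly factors, citric acid cycle, mitochondrial biogenesis and hypoxia genes, were used beside the members. The members and lists were chosen with earlier results of these data known. Genes were named by a rule: core subunits and complex IV paralogs always, the 10 largest called rises and falls per comparison, and up to 4 called genes per other list. Deviations from group means were correlated between arrays of the same replicate number. Between E12.5 and E11.5 lens all 3 pairs exceeded 0.1 (0.405 to 0.641), as in no other pair of groups. Between E10.5 lens and each later lens stage 2 of 3 pairs did. Arrays of different number reached 0.354 between E12.5 and E11.5 lens, so the numbers are not shown to mark pairs. No column was unused, and identical values between a pair of arrays reached at most 2.04%.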

Additional observations from a re-analysis of the deposited data

Results flagged for a closer look

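Among the 4 lens-series body arrays, 5 of the 77 genes had an array that stood apart from the other 3 by Dixon's criterion, which chance meets in about 1 of 20 groups. Body replicate 2 was high for Ndufb1 (7.552, others 7.155 to 7.218), Ndufb2 (11.05, others 10.382 to 10.485), Ndufb6 (11.699, others 11.205 to 11.238) and Ndufc1 (11.986, others 11.424 to 11.462). Body replicate 3 was low for Cox5a (12.234, others 12.537 to 12.578).

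For 25 named genes the difference from body was not the same in E12.5 lens as in tooth germ, by limma's test of the lens difference minus the tooth difference (adjusted p under 0.05). Over all members, 17 of 74 were called higher and 13 lower, against 19.2% and 20.4% of all tested genes, which is near the background. The lens difference was the higher one for Ndufa1 (2.05), Ndufaf6 (1.83), Ndufaf7 (1.36), Ndufs4 (1.17), Ndufc1 (1.14), Ndufs5 (1.13), Ndufs3 (1.04), Sdhb (0.91), Sdhc (0.90), Ndufaf1 (0.90), Sdhd (0.90), Ndufs1 (0.72), Ndufa4 (0.70) and Uqcrfs1 (0.54). It was the lower one for Ndufs7 (-1.33), Uqcr10 (-1.20), Ndufs8 (-1.07), Ndufa12 (-0.95), Ndufb10 (-0.91), Ndufv1 (-0.88), Cox6b2 (-0.88), Ndufb2 (-0.88), Ndufb9 (-0.82), Cox6a1 (-0.61) and Cox8a (-0.55). With 1 array left out, 4 of these calls ended: Ndufaf1 in 9 of 13 cases (0.72 and adjusted p = 0.133 without tooth germ replicate 1), Uqcrfs1 in 6 (0.44 and 0.0787 without tooth germ replicate 1), Cox6b2 in 6 (-0.74 and 0.0806 without tooth-series body replicate 2) and Ndufb9 in 2 (-0.68 and 0.0598 without E12.5 lens replicate 3). The smallest adjusted p was 3.14e-08 (Ndufa1) and the largest 0.0474 (Ndufaf1). For Ndufs5 the tooth germ arrays read 5.28, 5.02 and 5.95, near the no-target controls' 95th percentile (4.71), so the size of its gap is uncertain. The same holds for Cox6b2, at 5.206, 5.776 and 5.485 in tooth germ and 4.755, 4.722 and 5.533 in tooth-series body.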

How the results depend on the processing

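Counts of members called are given as higher and lower. With each array centred on its median they were 7 and 1 at E10.5 lens against body, 9 and 3 at E11.5, 18 and 4 at E12.5, and 6 and 1 between E12.5 and E10.5 lens. The replicate block gave 1 higher at E10.5 and 2 higher at E11.5, and moved no other count by over 1.5 times; same-numbered arrays correlated at over 0.1 in 7 of 9 pairs among lens stages, whereas pairs of lens or tooth germ with body lay between -0.527 and 0.244. Between E12.5 and E11.5 lens all 3 pairs exceeded it (0.405 to 0.641), and there the block left both counts at 0. Fitting only the compared arrays gave 2 and 4 at E11.5, and 1 and 1 between E12.5 and E10.5. The bacterial control set as a block gave 5 lower at E10.5, 7 higher at E11.5 and 1 lower between E12.5 and E11.5. Arrays of the high set alone gave 1 and 1, 2 and 12, and 4 and 1 at the 3 stages, 1 and 1 between E11.5 and E10.5, and 1 and 0 between E12.5 and E10.5. Within the low set they were 1 lower at E10.5, 7 and 0 at E11.5, 4 lower at E12.5, 1 higher between E12.5 and E11.5, and 1 and 1 between E12.5 and E10.5. With 1 array left out, the counts ranged from 1 to 4 higher and 1 to 3 lower at E10.5, 2 to 6 and 4 to 10 at E11.5, 6 to 11 higher and 4 to 10 lower at E12.5, 0 to 1 higher between E12.5 and E11.5, and 1 to 3 and 1 to 4 between E12.5 and E10.5. For tooth germ, the difference of differences and the body groups, no alternative moved a count by over 1.5 times.

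The sign turned for Ndufaf6 at E11.5 within the high set (-0.054), and for other genes with another probe set of the same gene. In lens these were Ndufb9 (0.48 at E11.5, 0.32 at E12.5), Ndufs8 (0.0834 and 0.26 at E11.5) and Ndufa7 (-0.0776 at E12.5, -0.10 between E12.5 and E10.5). In tooth germ they were Sdhc (0.10), Sdha (0.12), Ndufc1 (0.21), Cox6c (0.26), Ndufab1 (-0.09 and, called, -0.81) and Uqcrh (0.54, called). For the lens minus the tooth difference they were Ndufs4 (-0.0388), Sdhc (-0.13), Ndufb9 (0.62), Sdhd (-0.02), and 3 that were themselves called, of Uqcrh (-0.54) and Ndufab1 (1.03 and 1.27). Between the body groups 21 of 49 turned, 15 of them called; they included Ndufa10 (1.66), Ndufb7 (-1.20), Ndufb9 (-1.64), Ndufc2 (-1.28), Uqcrb (-0.70), Cox7a2l (-0.55), Ndufb11 (-1.26), Ndufc1 (-1.49), Ndufab1 (1.39, 1.10 and 0.27), Ndufv2 (0.87 and 0.12), Sdha (0.90) and Sdhd (0.68). The cause was not tested.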
